A study of Mus musculus with 12 samples.

Results

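The interferon-stimulated genes examined here are a list of 37 mouse genes that cells switch on in response to interferon. A gene was kept when the array carried a transcript cluster (the probe set that stands for a gene) annotated to its symbol alone. That left 35 of the 37 genes, out of 30142 genes with such a cluster and 65956 transcript clusters in all. Ifi44 had no cluster of its own and Ifi47 shared one with an olfactory receptor gene, so neither was used.

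The cells were C57BL/6 bone marrow progenitors from Ezh2-/- mice and wild-type littermates, immortalized with HOXB8-ER, a fusion of the HOXB8 homeobox protein to the ligand-binding part of the estrogen receptor. Estradiol (0.5 µM) kept them as undifferentiated promyelocyte-like cells, and its removal let them become neutrophils over 6 days. There were 6 groups of 2 arrays: neutrophil-derived cells labelled Ezh2-/-, wild-type neutrophil-derived cells, undifferentiated Ezh2-/- cells, undifferentiated wild-type cells, wild-type neutrophil-derived cells given GSK343, and wild-type neutrophil-derived cells given vehicle. GSK343, an inhibitor of the EZH2 methyltransferase, was given for 9 days, at 0.5 µM by the sample labels and 1 µM by the series text. EZH2 is the catalytic subunit of a Polycomb complex that methylates histones at repressed genes.

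Interferons bind surface receptors whose JAK kinases phosphorylate STAT proteins. STAT2 and IRF9 then act in a complex that binds the interferon-stimulated response element (ISRE) in the promoters of its target genes. The products degrade viral RNA, block translation, sense foreign nucleic acid or attack pathogens in vacuoles, and others switch the response off. In neutrophils, as in other myeloid cells, many of these genes also have a low level without infection.

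Promoter stretches are shown because the ISRE is the sequence through which these genes are known to be switched on together. In each, capitals mark the ISRE core GAAANNGAAA, searched on both strands, so that it can also appear as its reverse complement. Overlapping matches are run together. Positions count from the gene's start, with the last base before it as -1, and sequences are from RefSeq, build GRCm38.p6, read along the gene's own strand. Ifit1, Isg15, Rsad2, Oas3, Gbp2 and Igtp stand for called genes of different families, while Stat2 and Bst2 hold the same core and missed the threshold in the comparison of neutrophils by genotype. Ifit1 lies at chr19:34640779-34640838 (plus strand), Isg15 at chr4:156200850-156200909 (minus), Rsad2 at chr12:26456538-26456597 (minus) and Oas3 at chr5:120777700-120777759 (minus). Gbp2 lies at chr3:142620579-142620638 (plus), Igtp at chr11:58199497-58199555 (plus), Stat2 at chr10:128270251-128270310 (plus) and Bst2 at chr8:71537562-71537621 (minus).
Ifit1: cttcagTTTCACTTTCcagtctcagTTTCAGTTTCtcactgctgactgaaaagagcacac
Isg15: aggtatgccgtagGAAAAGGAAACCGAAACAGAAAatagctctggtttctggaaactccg
Rsad2: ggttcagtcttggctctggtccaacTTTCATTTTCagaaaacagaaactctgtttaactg
Oas3: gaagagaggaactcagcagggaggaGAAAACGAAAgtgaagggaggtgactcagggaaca
Gbp2: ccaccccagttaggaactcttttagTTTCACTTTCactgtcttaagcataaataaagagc
Igtp: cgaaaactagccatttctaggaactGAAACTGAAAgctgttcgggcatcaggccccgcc
Stat2: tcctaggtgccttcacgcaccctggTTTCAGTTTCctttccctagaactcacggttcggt
Bst2: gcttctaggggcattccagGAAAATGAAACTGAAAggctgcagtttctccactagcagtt

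The promoter table held 26 of the 35 genes, each with 250 bases before and 50 after the start. The ISRE core was found in 15 of the 26 promoters (57.7%), against 3.99% of the 27025 genes in the table. In 12 genes it lay within 150 bases before the start. Isg15 had 3 overlapping cores starting at -78, -72 and -66, and Ifit1 had 2 separate ones at -104 and -85. The GAS core TTCNNNGAA, known from the interferon gamma response, was found in 23.1% of the 26 promoters and 9.55% of all genes. These are letter matches in a fixed window. Several of the 35 genes are neighbours on their chromosomes and may share regulatory sequence: Rsad2 and Cmpk2, Ifit2 and Ifit3, Oas2 and Oas3, Oasl1 and Oasl2, Gbp2 and Gbp3, and the run Parp14, Dtx3l and Parp9.

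All values below are log2 signals as deposited, and differences are on the log2 scale, so that 1 is a doubling. The 8 genotype arrays had median log2 signals of 4.54 to 4.65 and the 4 drug arrays 3.88 to 3.96. How the sets were normalized is not stated, so levels were compared only within each set. A cluster was taken as above background where it exceeded the 95th percentile of the array's antigenomic control probes. The targeted gene was checked first: Ezh2 averaged 9.27 ± 0.25 in undifferentiated Ezh2-/- cells and 11.61 ± 0.06 in undifferentiated wild-type cells (SD, n = 2 each). In neutrophil-derived cells labelled Ezh2-/- it averaged 8.88 ± 0.19, against 8.33 ± 0.02 in wild-type ones, so the transcript was not lower there and the cells are called by their label. The labels do not say whether paired arrays came from separate cultures or how many lines were made, so genotype cannot be told apart from cell line. The p-values therefore reflect how far arrays of the same group lay apart, which may be technical. That spread was pooled over all 6 groups, so a gene had the same SE in every comparison of 2 groups. Tests of the neutrophil groups thus also drew on the gaps of the other groups, which were narrower for these genes.

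The 2 arrays of each neutrophil-derived genotype group differed more in these genes than elsewhere: the median absolute gap was 0.69 in labelled Ezh2-/- and 0.94 in wild-type neutrophils, against 0.17 and 0.18 over all clusters. In neutrophils labelled Ezh2-/-, array 2 was higher than array 1 for 31 of the 35 genes, with a median gap of 0.60, against 0.02 over all clusters. In wild-type neutrophils, array 2 was higher for 33 genes, with a median gap of 0.94, against -0.02 over all clusters. Oas2 had the widest gap, with 7.81 and 11.20 on the 2 wild-type neutrophil arrays. A gap over 1 was found for 7 genes in neutrophils labelled Ezh2-/- and 17 in wild-type neutrophils, against 1.56% and 2.21% of all clusters. No gene of the 35 had such a gap in the other 4 groups. Of all clusters, 0.69% had one in undifferentiated wild-type cells, 6.25% in undifferentiated Ezh2-/- cells, 1.03% with GSK343 and 0.46% with vehicle. Array 2 was higher for 29 genes in undifferentiated wild-type cells and 29 with GSK343, against 54.3% and 42.5% of all clusters. The count was 11 in undifferentiated Ezh2-/- cells and 7 with vehicle, against 48.5% and 51.0%. The genes therefore deviate together and are not independent observations of a condition.

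**Figure D1:**
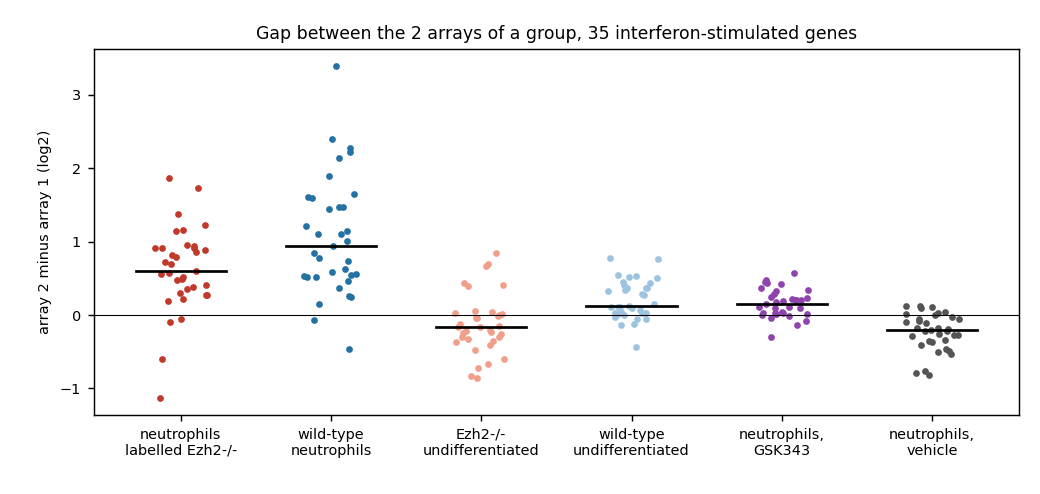
Gap between the 2 arrays of each group (array 2 minus array 1, log2) for the 35 genes, 1 point per gene, with a bar at the median. The points of neutrophils labelled Ezh2-/- centre on 0.60 and those of wild-type neutrophils on 0.94, while the other 4 medians lie between -0.20 and 0.16.

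The first comparison asks how loss of Ezh2 relates to these genes in neutrophil-derived cells. The genes were higher almost throughout in the neutrophils labelled Ezh2-/-: 29 of 35 rose and 0 fell by limma at an adjusted p under 0.05, where 6.75% of all clusters rose and 5.06% fell. Their median difference was 2.11, against -0.03 over all clusters. For 32 genes both arrays of the labelled cells lay above both wild-type arrays, and by more than either group's gap, where 23.6% of all clusters lay wholly above and 18.6% did so by more than both gaps. None lay wholly below, where 27.7% of all clusters did, 20.6% by more than both gaps. By role, the test was passed by 2 of 3 transcription factors, 2 of 2 genes filed as RNA sensors and 15 of 19 effectors. It was also passed by 6 of 7 genes of ubiquitin, ISG15 and PARP pathways, and 4 of 4 GTPases. Zbp1 and Eif2ak2, whose products also respond to nucleic acid, were filed as effectors. In bulk samples, more cells of a type and more RNA per cell cannot be told apart.

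**Figure D2:**
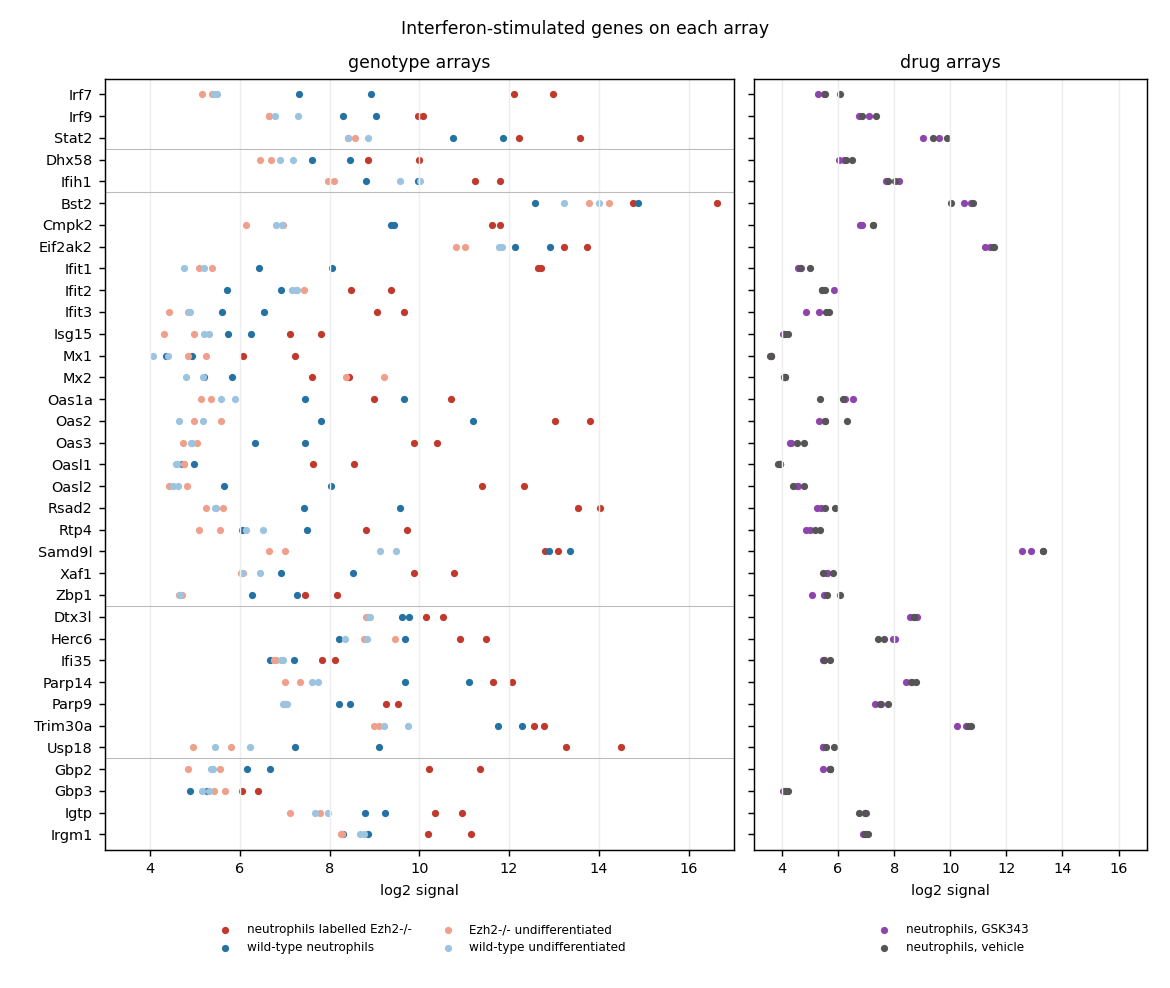
Log2 signal of each of the 35 genes on every array (1 point per array), ordered from top to bottom as transcription factors, RNA sensors, effectors, ubiquitin, ISG15 and PARP genes, and GTPases. In most lines the points of neutrophils labelled Ezh2-/- lie right of all other genotype arrays, as for Ifit1 at 12.70 and 12.65, while GSK343 and vehicle points lie close together.

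Among the transcription factors, Irf7, which amplifies interferon production, had 12.11 and 12.97 in neutrophils labelled Ezh2-/-, against 7.32 and 8.91 in wild-type neutrophils. It was higher on both labelled arrays by a wide margin, and the difference was 4.42 (SE 0.46, limma adjusted p = 0.000334). Irf9, the DNA-binding partner of the STAT proteins, had 10.07 and 9.98 in labelled cells and 8.30 and 9.03 in wild-type cells, and also rose (1.36, SE 0.28, adjusted p = 0.0117). Stat2 had 12.21 and 13.58 in labelled cells, against 10.75 and 11.86 in wild-type cells. The Stat2 groups did not overlap, but the wide gaps left its difference of 1.59 (SE 0.47) short of the threshold, at an adjusted p of 0.0642.

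Both genes filed as RNA sensors rose. Ifih1, which encodes the long double-stranded RNA sensor MDA5, had 11.23 and 11.79 in neutrophils labelled Ezh2-/-, against 8.82 and 9.97 in wild-type neutrophils (difference 2.11, SE 0.36, limma adjusted p = 0.0046). Dhx58, which encodes its relative LGP2, had 8.85 and 9.99 in labelled cells and 7.60 and 8.44 in wild-type cells (1.39, adjusted p = 0.0376). Neither gene's groups overlapped, though the Dhx58 values of the lower labelled array and the higher wild-type array were close.

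Of the 19 effectors, 15 rose. Ifit1, whose product binds viral RNA lacking the host cap, had 12.70 and 12.65 in neutrophils labelled Ezh2-/-, against 6.42 and 8.06 in wild-type neutrophils. The labelled arrays were nearly equal and the wild-type arrays were not, and the difference was 5.43 (SE 0.43, limma adjusted p = 7.51e-05), a 43.2-fold change. Ifit3 had 9.66 and 9.06 in labelled cells and 5.59 and 6.53 in wild-type cells (3.30, adjusted p = 0.000225). The neighbouring Ifit2 had 8.47 and 9.36 in labelled cells and 5.71 and 6.92 in wild-type cells (2.60, adjusted p = 0.00231). All 3 genes of this family were thus apart from wild type on every array, although near-identical copies of Ifit genes could share probes.

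Rsad2 encodes viperin, which makes a nucleotide that stops viral RNA synthesis, and Cmpk2 is the nucleotide kinase gene beside it. Rsad2 had 13.54 and 14.02 in neutrophils labelled Ezh2-/-, against 7.43 and 9.57 in wild-type neutrophils (5.28, SE 0.54, limma adjusted p = 0.000309). Cmpk2 had 11.61 and 11.80 in labelled cells, against 9.44 and 9.37 in wild-type cells (2.30, adjusted p = 0.000247). The wild-type Cmpk2 arrays were level, and its smaller difference came with a narrow error (SE 0.23).

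The oligoadenylate synthetases make the signal that activates RNase L, which cuts RNA. Oas3 had 9.87 and 10.38 in neutrophils labelled Ezh2-/-, against 6.34 and 7.44 in wild-type neutrophils (3.23, limma adjusted p = 0.000247). Oas2 had 13.02 and 13.81 in labelled cells and 7.81 and 11.20 in wild-type cells (3.90, SE 0.87, adjusted p = 0.0179). Oas1a overlapped, with 8.99 and 10.71 in labelled cells and 7.45 and 9.67 in wild-type cells (1.29, SE 0.70, adjusted p = 0.344). The Oas1a values on array 2 of wild type exceeded those on array 1 of the labelled cells. Oasl2, a synthetase-like gene, had 11.39 and 12.32 in labelled cells, against 5.64 and 8.04 in wild-type cells (5.02, SE 0.63, adjusted p = 0.000942). Oasl1, whose product restrains Irf7 translation in mice, had 7.62 and 8.54 in labelled cells and lay at background in wild-type cells at 4.72 and 4.98 (adjusted p = 6.13e-05). Its ratio is a bound, set from each dim array's lowest signal above background: at least 6.02-fold higher in labelled cells.

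Mx1 and Mx2 are dynamin-like GTPases that block virus replication, and C57BL/6 mice carry a defective Mx1. Mx1 had 6.07 and 7.23 in neutrophils labelled Ezh2-/- and lay at background in wild-type cells, at 4.35 and 4.93 (at least 2.23-fold higher, limma adjusted p = 0.00497). Mx2 had 7.61 and 8.43 in labelled cells and 5.20 and 5.83 in wild-type cells (2.50, adjusted p = 0.00145). The other effectors that rose were Xaf1 (2.61), Rtp4 (2.51), Isg15 (1.48) and Eif2ak2 (0.97), the last encoding PKR, the kinase that halts translation on double-stranded RNA. Samd9l went against the rest: it had 12.80 and 13.08 in labelled cells and 13.35 and 12.89 in wild-type cells, which overlapped (difference -0.18, SE 0.22, adjusted p = 0.74). Bst2, encoding the virion tether tetherin, also overlapped, with 14.76 and 16.62 in labelled cells and 12.58 and 14.86 in wild-type cells (1.97, SE 0.75, adjusted p = 0.151). Zbp1, a sensor of left-handed nucleic acid that starts necroptosis, did not overlap but missed the threshold (1.03, adjusted p = 0.0933).

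In the ubiquitin, ISG15 and PARP group, the largest difference of all 35 genes was that of Usp18, which encodes the protease that removes ISG15 and damps interferon receptor signalling. Usp18 had 13.26 and 14.48 in neutrophils labelled Ezh2-/-, against 7.22 and 9.11 in wild-type neutrophils. Every labelled array exceeded every wild-type array, with a difference of 5.71 (SE 0.61, limma adjusted p = 0.00039). Herc6, the mouse ligase gene for ISG15, had 10.91 and 11.48 in labelled cells and 8.20 and 9.67 in wild-type cells (2.26, adjusted p = 0.00927). The adjoining Parp14, Dtx3l and Parp9 rose by 1.46, 0.65 and 1.04, and Ifi35 rose by 1.03. Trim30a did not pass (0.65, adjusted p = 0.107), although its groups did not overlap.

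The GTPases of the guanylate-binding and immunity-related families act on vacuoles that hold pathogens. Gbp2 had 11.35 and 10.22 in neutrophils labelled Ezh2-/-, against 6.15 and 6.67 in wild-type neutrophils (4.37, SE 0.36, limma adjusted p = 9.49e-05). Unlike most of the genes, Gbp2 was lower on array 2 of the labelled cells. Irgm1 had 10.20 and 11.15 in labelled cells and 8.29 and 8.84 in wild-type cells (2.11, adjusted p = 0.00127). Igtp had 10.34 and 10.94 in labelled cells and 8.78 and 9.24 in wild-type cells (1.63, adjusted p = 0.00434). Gbp3 was at background in wild-type neutrophils and at least 1.67-fold higher in labelled ones (adjusted p = 0.00243). Families such as the Gbp, immunity-related GTPase, Ifit, Oas and Trim30 genes have close copies, so a probe set can pick up a relative.

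The count rests in part on 1 array. Without array 2 of the neutrophils labelled Ezh2-/-, 18 genes passed instead of 29, and Dhx58, Dtx3l, Eif2ak2, Herc6, Ifi35, Irf9, Isg15, Oas2, Parp14, Rtp4 and Xaf1 did not. With only the 4 compared arrays in the fit, so that the spread came from the neutrophil groups alone, 18 genes also passed. Under every alternative tried, 17 of the 29 calls were kept, and 0 genes were called lower under any of them.

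**Figure D3:**
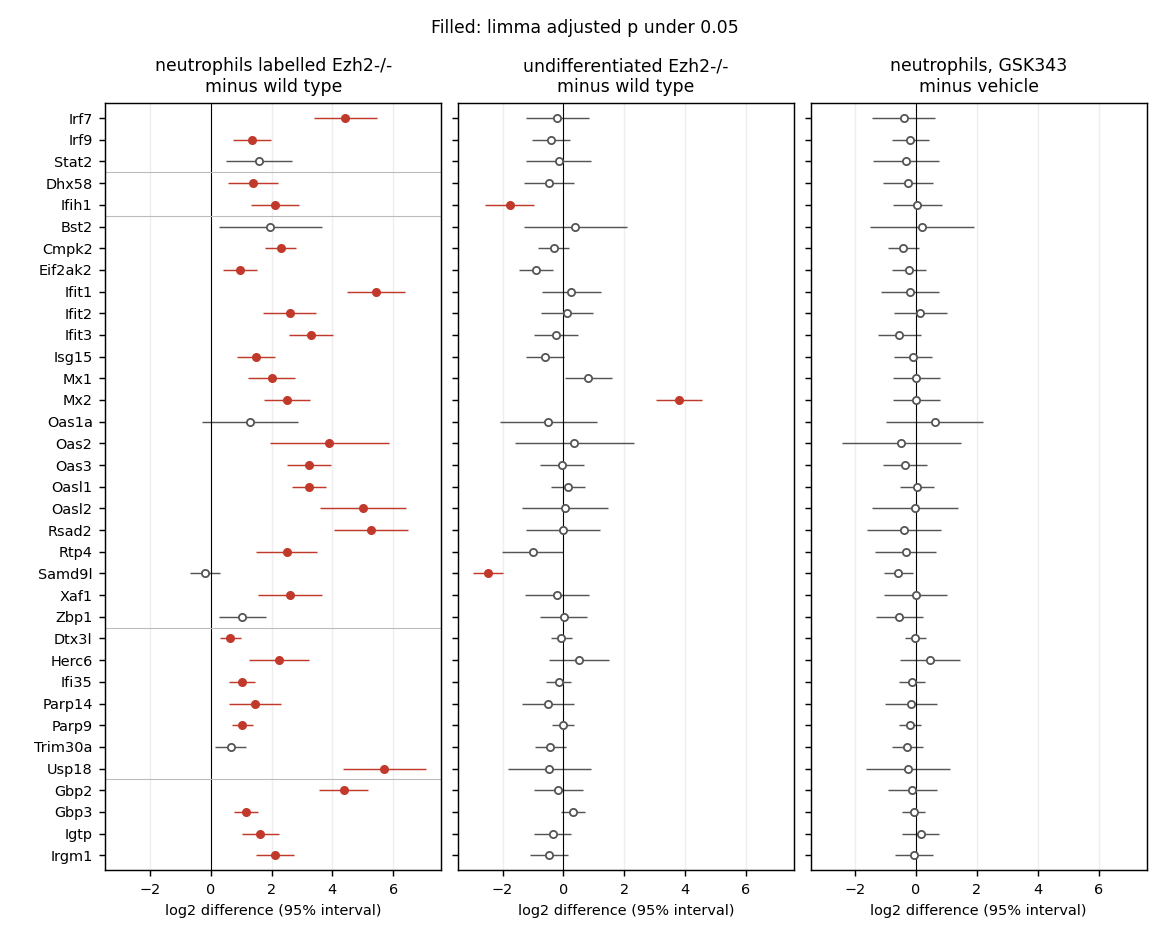
Log2 difference of the 35 genes with its 95% interval in 3 comparisons: neutrophils labelled Ezh2-/- minus wild type, undifferentiated Ezh2-/- minus wild type, and GSK343 minus vehicle. Filled points passed limma at an adjusted p under 0.05: 29 in the left panel, 3 in the middle and 0 in the right.

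Markers of other cell types moved with the neutrophil comparison. All 7 mast cell and basophil markers and all 7 erythroid markers rose in neutrophils labelled Ezh2-/-. The log2 of the summed mast cell and basophil signal was 19.3 to 19.4 in labelled cells and 8.53 to 8.83 in wild-type ones, and the erythroid sum was 15.7 to 16.1, against 7.53 to 7.54, where all 7 lay at background in wild-type cells. The mast cell and basophil sum was also high in undifferentiated cells, at 18.78 to 18.88 in wild-type and 17.97 to 18.28 in Ezh2-/- cells. Of these markers, Tpsb2, Cma1 and Fcer1a were above background on both arrays only in labelled neutrophils. No erythroid marker was above background on both arrays of either undifferentiated group. All 9 cell cycle genes rose, with summed signal of 17.5 to 17.7 in labelled cells and 14.2 to 15.2 in wild-type cells, while 5 of 10 neutrophil markers fell, with 20.0 to 20.4 in labelled cells and 20.7 to 21.2 in wild-type cells. The cell cycle sum was 16.98 to 17.26 in undifferentiated wild-type cells and 16.51 to 17.16 in undifferentiated Ezh2-/- cells. Of 8 progenitor markers, 4 rose and 0 fell, with summed signal of 13.2 to 13.8 in labelled cells and 10.6 to 10.7 in wild-type cells. Of 7 macrophage markers, 0 rose and 4 fell, with 15.3 to 15.7 in labelled cells and 16.4 to 17.5 in wild-type cells. Of the plasmacytoid dendritic cell markers, whose cells are the known bulk producers of interferon, 0 of 5 were called and Siglech, Ccr9, Spib and Cox6a2 were not above background on both arrays of any group. On the drug arrays, the mast cell and basophil sum was 14.81 to 14.90 with GSK343 and 11.843 to 11.995 with vehicle. By limma, 1 of these 7 markers rose with GSK343 and 0 fell. The part of these cell types in the interferon-stimulated genes was not tested.

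Other genes of the interferon pathway were read from the same fit of neutrophils. Of 15 interferon genes, 0 were called and 0 were above background on both arrays of any group, Ifnb1 among them. Of 6 receptor genes, 4 fell in neutrophils labelled Ezh2-/- and 0 rose: Il10rb (-1.09, adjusted p = 0.00114), Ifnar1 (-0.99, adjusted p = 0.0115), Ifnar2 (-0.81, adjusted p = 0.00165) and Ifngr1 (-0.79, adjusted p = 0.0321). Ifnar1 had 11.85 and 11.35 in labelled cells and 12.36 and 12.83 in wild-type cells, which did not overlap. Among 12 kinases and factors, 0 rose and 3 fell, namely Tyk2 (-0.73), Irf3 (-0.63) and Irf4. Irf4 had 4.37 and 5.33 in labelled cells, not above background on both arrays, and 6.56 and 6.90 in wild-type cells (adjusted p = 0.00237). These and the following list results are described by count, with the medians in the plot of pathway lists.

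Sensing genes were mixed: 4 of 16 rose and 6 fell. Ifi204, a DNA sensor of the interferon-inducible p200 family, rose by 1.84 (limma adjusted p = 0.00516), as did Ddx58 by 1.38, encoding RIG-I, and Adar by 1.08. Tlr3 also passed (adjusted p = 0.000557), with 5.27 and 5.61 in labelled cells, not above background on both arrays of either group. The endosomal receptors Tlr7 and Tlr8 fell by 2.77 and 2.30, and Aim2 by 1.92. In the list drawn up for negative regulators, 1 of 11 genes rose and 2 fell (Ptpn6, -0.98, and Pias3, -0.63). The one that rose was Uba7 (1.17), which was listed with them although it activates ISG15. Usp18, which damps the response, is among the 35 genes and not in this list. Of 24 further interferon-induced genes, 7 rose and 1 fell: Ddx60 (3.31, adjusted p = 1.41e-05), Parp12 (2.88), Ifitm1 (2.60) and Isg20 (1.68) led the higher ones, and Sp110 (-1.39) was lower. Of 11 genes of MHC class I presentation, 0 rose and 4 fell, Tap2 by 1.12, Psmb8 by 0.99, Psmb9 by 0.82 and H2-D1 by 0.66. All of these lists were drawn up with earlier results of these data known.

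**Figure D4:**
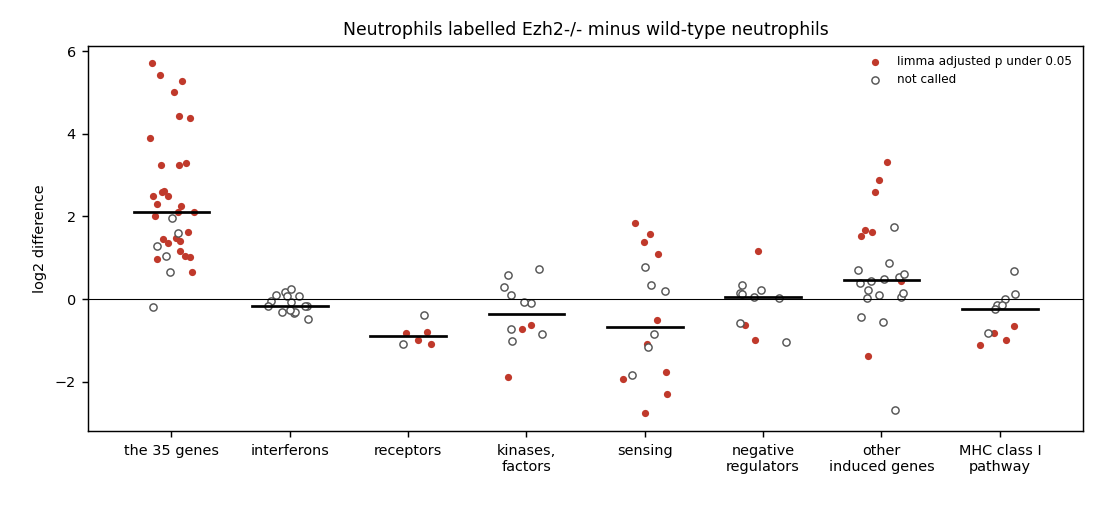
Log2 difference, neutrophils labelled Ezh2-/- minus wild-type neutrophils, for the 35 genes and 7 lists of the interferon pathway, 1 point per gene with a bar at each list's median. The median of the 35 genes is 2.11, and those of the other lists lie between -0.90 (receptors) and 0.47 (other induced genes).

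In undifferentiated cells, the same comparison gave little. One gene rose and 2 fell in undifferentiated Ezh2-/- cells by limma, where 1.65% of all clusters rose and 1.34% fell. The median difference was -0.17, against -0.01 over all clusters. Both Ezh2-/- arrays lay above both wild-type arrays for 4 genes and below them for 15, beside 18% and 19.5% of all clusters. By more than both replicate gaps, 4 were higher and 10 lower, beside 12.3% and 12.8%.

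Mx2 was the gene that rose. It had 8.37 and 9.21 in undifferentiated Ezh2-/- cells and lay at background in wild-type cells, at 4.80 and 5.17 (at least 10.2-fold higher, limma adjusted p = 0.000322). Samd9l had 7.00 and 6.65 in Ezh2-/- cells, against 9.12 and 9.48 in wild-type cells (-2.48, SE 0.22, adjusted p = 0.000283). Ifih1 had 8.10 and 7.95 in Ezh2-/- cells and 9.57 and 10.01 in wild-type cells (-1.77, SE 0.36, adjusted p = 0.0306). Both groups were apart for these 3 genes, but Ifih1 lost its call under 6 of the alternatives, each left-out array of the 2 groups among them.

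Most of the strongest genes in neutrophils lay at background in undifferentiated cells. Ifit1, for example, had 5.39 and 5.09 in Ezh2-/- cells and 4.75 and 5.21 in wild-type cells, below background on all 4 arrays. In all, 19 of 35 genes were above background on both undifferentiated Ezh2-/- arrays and 20 on both wild-type ones. Usp18 overlapped, with 5.81 and 4.95 in Ezh2-/- cells and 5.45 and 6.22 in wild-type cells. Class I presentation genes were lower in these cells: 7 of 11 fell, led by Tap1 (-2.25, limma adjusted p = 0.00116) and H2-D1 (-2.04), with 0 higher. Among the other induced genes, Parp12 rose by 3.14 and Sp100 fell by 3.18, and of the sensing genes Aim2 fell by 3.51.

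Differentiation itself raised many of these genes in both genotypes, and the wild-type neutrophil and undifferentiated arrays here also serve the comparisons above. In wild-type cells, 20 of 35 rose and 0 fell by limma, where 13% of all clusters rose and 12.2% fell, with a median of 1.20 against 0.03 over all clusters. Neutrophil arrays lay wholly above for 26 genes and below for 1 (33.2% and 26.9% of all clusters), and by more than both gaps for 21 and 0 (27.1% and 22.4%). In cells labelled Ezh2-/-, 33 of 35 rose and 0 fell, where 11.7% of all clusters rose and 10.7% fell, with a median of 3.48 against 0.01. Neutrophil arrays lay wholly above for 34 genes and below for 0 (28.9% and 26.3% of all clusters), and by more than both gaps for 33 and 0 (22.6% and 20.2%).

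In wild-type cells, Oas2 had 7.81 and 11.20 in neutrophils and lay at background in undifferentiated cells at 4.64 and 5.19 (at least 16.8-fold higher, limma adjusted p = 0.00341). Samd9l, a gene mutated in inherited marrow failure in people, had 13.35 and 12.89 in neutrophils, against 9.12 and 9.48 in undifferentiated cells (3.82, SE 0.22, adjusted p = 3.08e-06). All neutrophil values lay above all undifferentiated ones for both genes. Rsad2 had 7.43 and 9.57 in neutrophils, against 5.45 and 5.47 in undifferentiated cells (3.04, adjusted p = 0.00238). Oas1a had 7.45 and 9.67 in neutrophils and 5.57 and 5.90 in undifferentiated cells (2.82, adjusted p = 0.0157). Rsad2 and Oas1a were thus higher in neutrophils on every array, with neutrophil arrays far apart. Parp14 had 9.67 and 11.11 in neutrophils, against 7.74 and 7.61 in undifferentiated cells (2.71, adjusted p = 0.000579). Stat2 had 10.75 and 11.86 in neutrophils and 8.86 and 8.42 in undifferentiated cells (2.67, adjusted p = 0.00242). These groups did not overlap either. Trim30a had 11.75 and 12.28 in neutrophils and 9.21 and 9.74 in undifferentiated cells (2.55, adjusted p = 3.49e-05). Cmpk2 had 9.44 and 9.37 in neutrophils and 6.81 and 6.93 in undifferentiated cells (2.54, adjusted p = 3.68e-05). Trim30a and Cmpk2 changed less than Stat2 but with smaller errors. Ifit2 went the other way without passing, with 5.71 and 6.92 in neutrophils and 7.28 and 7.15 in undifferentiated cells (-0.90, adjusted p = 0.133). Without array 2 of the wild-type neutrophils Ifit2 was called lower, at -1.51.

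In cells labelled Ezh2-/-, the fold changes were larger. Usp18 had 13.26 and 14.48 in neutrophils, against 5.81 and 4.95 in undifferentiated cells (8.49, SE 0.61, limma adjusted p = 1.72e-05). Its undifferentiated signal was above background on only 1 of the 2 arrays, so 8.49 is a fitted value. Rsad2, Oas2, Ifit1, Irf7 and Oasl2 lay at background in undifferentiated cells, so their ratios are bounds. Rsad2 had 13.54 and 14.02 in neutrophils, against 5.62 and 5.25 in undifferentiated cells (at least 298-fold higher, adjusted p = 1.11e-05). Oas2 had 13.02 and 13.81 in neutrophils and 5.57 and 4.97 in undifferentiated cells (at least 231-fold, adjusted p = 0.000171). Ifit1 had 12.70 and 12.65 in neutrophils and 5.39 and 5.09 in undifferentiated cells (at least 139-fold, adjusted p = 5.85e-06). All 3 genes were far above background on both neutrophil arrays. Irf7 had 12.11 and 12.97 in neutrophils and 5.37 and 5.15 in undifferentiated cells (at least 126-fold, adjusted p = 9.47e-06). Oasl2 had 11.39 and 12.32 in neutrophils and 4.83 and 4.42 in undifferentiated cells (at least 78.6-fold, adjusted p = 5.18e-05). No array of one stage overlapped the other stage for these genes. Samd9l had 12.80 and 13.08 in neutrophils and 7.00 and 6.65 in undifferentiated cells (6.12, adjusted p = 3.25e-07), and Cmpk2 had 11.61 and 11.80 in neutrophils and 6.97 and 6.14 in undifferentiated cells (5.15, adjusted p = 1.28e-06). Mx2 went the other way without passing, with 7.61 and 8.43 in neutrophils, against 8.37 and 9.21 in undifferentiated cells (-0.77, adjusted p = 0.154). Bst2 also missed the threshold (1.68, adjusted p = 0.161).

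**Figure D5:**
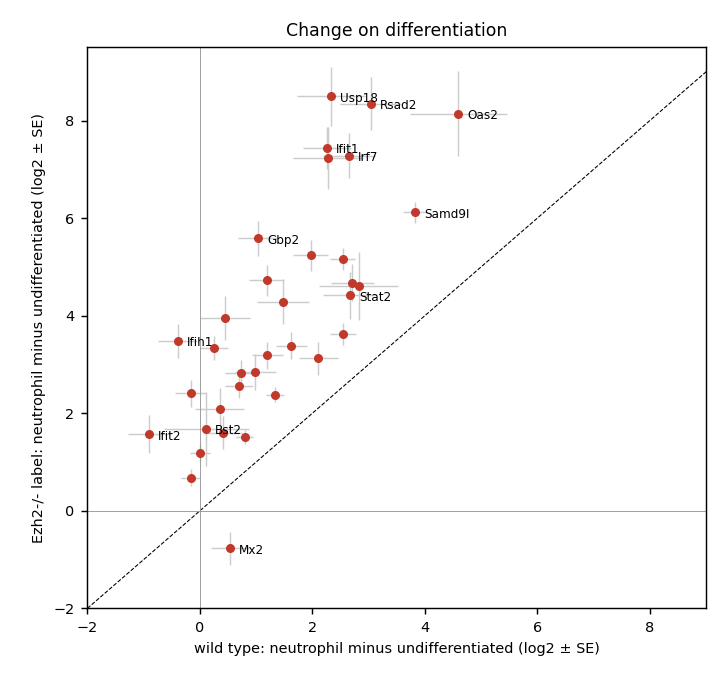
Log2 change of each gene on differentiation in wild-type cells (horizontal) and in cells labelled Ezh2-/- (vertical), with SE bars; the broken line marks equal change. All genes except Mx2 lie above the line, with Usp18 at 8.49 in labelled cells and 2.33 in wild-type cells. Many changes are fitted values because undifferentiated signal was at background. Above background on no undifferentiated array were 12 genes in wild-type cells and 14 in Ezh2-/- cells. For Usp18 the signal was at background on 1 array of each genotype, and for Mx2 on both wild-type arrays.

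Whether the genotype difference itself differed between stages was tested as an interaction. It passed for 22 of 35 genes, each with a more positive difference in neutrophils, and for 0 the other way, where 2.77% of all clusters passed upward and 1.65% downward. Of the 22, 11 were above background on all 4 undifferentiated arrays: Cmpk2 (2.62, SE 0.32, limma adjusted p = 0.00238), Irgm1 (2.57), Xaf1, Ifit2, Ifih1, Samd9l, Igtp, Eif2ak2, Irf9, Ifi35 and Parp9. Another 7 (Ifit1, Ifit3, Isg15, Oas3, Oasl1, Oasl2 and Gbp2) were above background on 0 of these arrays, and Usp18, Rsad2, Irf7 and Rtp4 on 1 or 2 of them. For these 11 genes the undifferentiated difference was not measured in full, so their interactions are fitted values and give no order of size. Ifih1 is the gene called in opposite directions at the 2 stages, 2.11 in neutrophils and -1.77 in undifferentiated cells (interaction 3.88, adjusted p = 0.00323). Samd9l differed by -2.48 in undifferentiated cells and by -0.18 in neutrophils, so its positive interaction stands for a smaller difference in neutrophils (2.30, adjusted p = 0.00362). Mx2 had 2.50 in neutrophils and 3.80 in undifferentiated cells, and its interaction did not pass (-1.30, adjusted p = 0.211). These are also fitted values, since Mx2 lay at background on both undifferentiated wild-type arrays and on 1 wild-type neutrophil array. The count was 12 without array 2 of the neutrophils labelled Ezh2-/-, 13 without array 1 of the undifferentiated wild-type cells and 12 without their array 2.

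The drug comparison asks whether inhibiting EZH2 during differentiation gives a like change. By limma, 0 of 35 genes rose and 0 fell with GSK343, where 0.00152% of all clusters rose and 0% fell. At an unadjusted limma p under 0.05, 0 genes were higher and 1 was lower. The share of all clusters at that level was not counted, so nothing is read from the 1 gene. No alternative called any of the 35 genes, including quantile normalization and a fit of the 4 drug arrays alone. The median difference was -0.17, against 0.00 over all clusters, and GSK343 arrays lay wholly above vehicle for 3 genes and wholly below for 14, beside 19.5% and 18.6% of all clusters. By more than both gaps, 1 was higher and 9 lower, beside 13.4% and 12.1%.

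The 3 largest drug differences were small. Oas1a had 6.53 and 6.23 in GSK343-treated neutrophils, against 6.18 and 5.36 in vehicle-treated ones (0.61, 95% interval -0.98 to 2.20, limma adjusted p = 1). Samd9l had 12.56 and 12.89 with GSK343 and 13.32 and 13.29 with vehicle (-0.58, interval -1.07 to -0.09, adjusted p = 0.722). Zbp1 had 5.06 and 5.49 with GSK343 and 6.06 and 5.60 with vehicle (-0.56, interval -1.33 to 0.22, adjusted p = 0.939). Groups were apart for all 3 genes.

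Usp18, Rsad2 and Irf7, among the genes with the widest genotype difference in neutrophils, lay in narrow ranges not far above background on the drug arrays. The background was 5.20 and 4.83 on the GSK343 arrays and 5.15 and 4.96 on the vehicle arrays, so a fall could hardly be seen. Ifit1 and Oasl2, with genotype differences of 5.43 and 5.02, were at background on all 4 drug arrays. Usp18 had 5.45 and 5.45 with GSK343, against 5.85 and 5.58 with vehicle (-0.26, interval -1.63 to 1.11). Rsad2 had 5.38 and 5.25 with GSK343 and 5.89 and 5.55 with vehicle (-0.40, interval -1.62 to 0.82). Irf7 had 5.28 and 5.49 with GSK343 and 6.05 and 5.52 with vehicle (-0.40, interval -1.44 to 0.63). These intervals end below the genotype differences of 5.71, 5.28 and 4.42 given above, which come from the other set of arrays. A p that misses the threshold does not show that GSK343 and vehicle act alike.

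Some genes could not be read in the drug set. Ifit1, Isg15, Oas3, Oasl1, Oasl2, Mx1, Mx2 and Gbp3 were at background on all 4 drug arrays. Ifit1, Isg15, Oas3 and Oasl2 of these were above background on both untreated wild-type neutrophil arrays. In all, 24 genes were above background on both GSK343 arrays and 27 on both vehicle arrays, beside 31 on both untreated wild-type arrays. The comparison of untreated and vehicle-treated neutrophils was not tested, since the medians of the 2 sets of arrays differed.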

How the data were processed

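RNA (250 ng per sample) was hybridized to mouse transcriptome arrays, with 2 arrays in each of 6 groups taken from the sample labels. The values are log2 signals as deposited by the authors. The submitters' processing notes name Affymetrix Expression Console and Transcriptome Analysis Console; for the summarisation method, as for the build, the entry is "not given in the sources used here". The 72688 entries held 6732 control probe sets, which were left out, leaving 65956 clusters. Of these, 30604 had 1 gene symbol, 2146 several and 33206 none, and 22818 of the clusters with 1 symbol were matched by Entrez ID, which changed 827 symbols.

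Groups were compared with limma 3.58.1 in R 4.3.3 (lmFit and eBayes over all clusters and all 12 arrays, 6 residual degrees of freedom, two-sided, Benjamini-Hochberg adjustment over all clusters, called under 0.05). The script was tested on simulated data. Bounds ("at least N-fold") compare the bright group's mean with the dim group's mean of the higher of its own signal and the lowest signal above background. All 35 genes could be named. Full values were given for the 6 called genes with the largest difference and the 2 with the smallest adjusted p not among them, for genes against the majority or at background, and for others where the text needed them. In comparisons with few calls, the 3 largest differences were given. The 35 genes, pathway lists and markers were chosen with earlier results of these data known. Of the 35 genes, 18 were above background on all 12 arrays. Array number limits the precision. Alternatives covered the arrays fitted, centring, quantile normalization, a dim-cluster filter, a trended prior, a replicate block, a fold minimum of 2 and left-out arrays.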

Additional observations from a re-analysis of the deposited data

Results flagged for a closer look

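In 22 genes the genotype difference was more positive in neutrophil-derived cells than in undifferentiated cells, by a limma test of the difference between the 2 differences. The values below are the difference in neutrophils (labelled Ezh2-/- minus wild type) minus the difference in undifferentiated cells (Ezh2-/- minus wild type), on the log2 scale. Ifit1, Ifit3, Isg15, Oas3, Oasl1, Oasl2 and Gbp2 were above background on 0 of the 4 undifferentiated arrays, and Usp18, Rsad2, Irf7 and Rtp4 on 1 or 2, so the values of these 11 genes are fitted values that rest on signal at background. For Samd9l the value stands for a smaller difference in neutrophils (-0.18) than in undifferentiated cells (-2.48).

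Among effectors the values were 5.31 for Rsad2, 5.18 for Ifit1, 4.96 for Oasl2, 3.54 for Ifit3, 3.52 for Rtp4, 3.27 for Oas3, 3.08 for Oasl1, 2.81 for Xaf1, 2.62 for Cmpk2, 2.48 for Ifit2, 2.30 for Samd9l, 2.09 for Isg15 and 1.86 for Eif2ak2. Usp18 had 6.17, Ifi35 had 1.17 and Parp9 had 1.05 among the ubiquitin, ISG15 and PARP genes. Irf7 had 4.63 and Irf9 had 1.76 among the transcription factors, and Ifih1 had 3.88 among the sensors. The GTPases Gbp2, Irgm1 and Igtp had 4.54, 2.57 and 1.98. Of the 22 calls, 12 were kept under every alternative tried.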

How the results depend on the processing

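No called difference changed sign under the alternatives tried. In neutrophils (labelled Ezh2-/- minus wild type), 29 genes were called higher, and 18 with only the 4 compared arrays fitted; leaving out 1 array at a time gave 18 to 32, and the remaining alternatives 24 to 30. In undifferentiated cells the 2 genes called lower became 1 with only the genotype arrays or only the 4 compared arrays, and the count was 1 to 2 with 1 array left out. Ifih1 was lost in each of those, and the count of 2 included Cmpk2 (-0.73). On differentiation, left-out arrays gave 0 to 1 gene called lower in both genotypes: Ifit2 in wild-type cells (-1.51) and Mx2 in cells labelled Ezh2-/- (-1.19). The 22 interactions became 12 with the genotype arrays alone and 12 to 26 with 1 array left out. A longer ISRE, GAAANNGAAACT, was in 30.8% of the genes' promoters and 0.303% of all. Having 2 arrays a group limits every count. No gene had several clusters, so the dimmest could not replace the brightest.

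Array numbers were not taken to pair the samples: same-numbered arrays of the genotype groups deviated with r from -0.11 to 0.19, not over 0.1 in every pair of groups. It was highest between the neutrophil groups (0.19), whose array 2 was the higher one for most of the 35 genes. With the replicate block, 29 genes were called higher in neutrophils, 22 interactions passed and 0 drug calls were made. The block is a single term shared by all groups, and every group holds both array numbers. It therefore leaves each difference as it was, changes only its error, and cannot fit a shift that differs between groups. The drug arrays of equal number deviated oppositely (r = -0.19), and a crossed block, chosen after seeing the data, also gave 0 calls.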
